A study of Mus musculus with 14 samples.

Results

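The genes described here are 36 identity genes of the cells that build and surround cortical blood vessels, taken as the rows of the deposited table that carry their symbols. They comprise 18 genes of endothelial cells, 13 of mural cells (pericytes and vascular smooth muscle) and 5 of fibroblasts of the meninges. All 36 were found among the 32830 genes of the table, and all 36 passed the filter on low values, which left 22575 genes to be tested. The study measured RNA by sequencing in the cerebral cortex of 14-day-old mice of the SW strain carrying Aldh1l1-GFP, a transgene in which an astrocyte promoter drives green fluorescent protein. Upper and deep layers were parted by hand, and each was either dissociated with papain and sorted by GFP, or kept whole. The groups were GFP-positive cells (astrocytes, 3 libraries from upper and 3 from deep layers), GFP-negative cells (non-astrocytes, 2 and 2) and undissociated tissue (bulk tissue, 2 and 2). Every group came from mice of this reporter strain as far as the labels say, and the sort removed dead cells with the dye DAPI.

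Cortical capillaries are tubes of endothelial cells joined by tight junctions, which with a specialised set of transporters form the blood-brain barrier. Pericytes sit on the capillary wall inside the basement membrane, while smooth muscle cells ring the arterioles and contract. Fibroblasts of the pia and arachnoid cover the cortical surface and follow the larger vessels inward, laying down collagens and proteoglycans, and astrocyte endfeet enclose the vessel from the brain side.

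Each library held between 18226457 and 30316765 reads in genes, and values are given as normalised read counts, which are reads divided by 1 size factor per library. The 10 astrocyte markers were all higher in astrocytes than in non-astrocytes, with a median log2 difference of 5.32. The 10 neuron markers were all lower in non-astrocytes than in bulk tissue, with a median log2 difference of -4.61, while the 10 microglia markers were all higher there, with a median of 4.46. In bulk RNA such as this, fewer cells of a type and less RNA per cell cannot be told apart. The labels do not say whether libraries came from separate animals, so the spread behind each p-value is that of these libraries and could be technical. Scaling to library totals in place of size factors moved the median log2 difference of all genes between non-astrocytes and bulk tissue to 0.32, against -0.04, and the share of calls that were higher to 64.1%, against 49.5%. No member changed direction between fractions under TMM or library total scaling. Titles were followed for the upper layer astrocytes and non-astrocytes, whose characteristics field names bulk tissue instead.

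**Figure D1:**
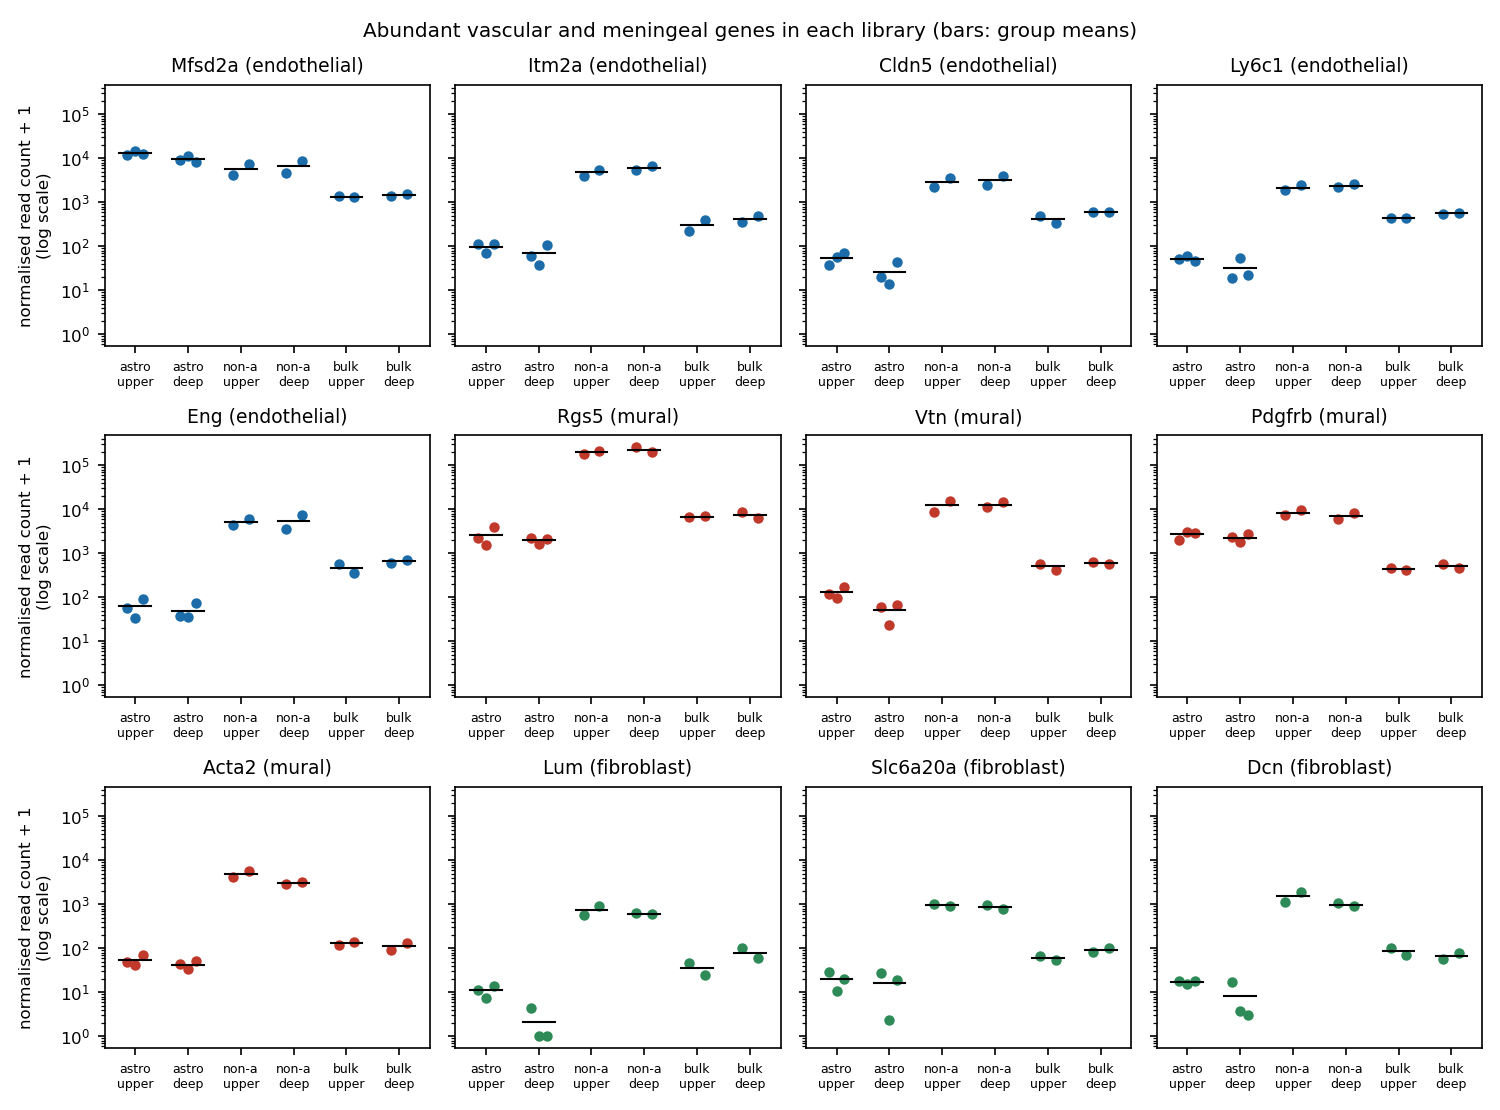
Normalised read counts plus 1 (log scale) of the 5 endothelial, 4 mural and 3 fibroblast members with the highest levels per kilobase of exon in their class, 1 point per library, with a bar at each group's mean. Groups run from astrocytes through non-astrocytes to bulk tissue, upper before deep layers. Most genes are lowest in astrocytes and highest in non-astrocytes; Mfsd2a is highest in astrocytes, and Pdgfrb is higher in astrocytes than in bulk tissue.

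Endothelial genes were depleted from sorted astrocytes and concentrated in the non-astrocyte fraction, with Mfsd2a as the exception. Of 18 genes, 17 were lower and 1 was higher in astrocytes than in non-astrocytes by limma at an adjusted p under 0.05. Over all genes tested 66.3% were called in this comparison, 36.8% lower and 29.6% higher. The median endothelial log2 difference was -5.90, which is 59.9-fold lower, beside a median of -0.08 over all genes. All 18 were higher in non-astrocytes than in bulk tissue, where 61.6% of all genes were called and 30.5% were higher, and the median log2 difference was 2.86, or 7.26-fold, beside -0.04 over all genes. Against bulk tissue, astrocytes had 16 lower, 1 higher and 1 not called, with a median log2 difference of -2.82. Over all genes 64.8% were called there, 36.1% lower and 28.8% higher. The 3 comparisons share libraries and are not independent of each other.

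Itm2a (chrX:107397099-107403376, build GRCm38), a membrane protein abundant in brain endothelium, had 110, 69.8 and 111 counts in upper layer astrocytes and 60.2, 36.9 and 108 in deep layer astrocytes. It had 4019 and 5568 counts in upper and 5448 and 6625 in deep layer non-astrocytes. Bulk tissue had 224 and 389 in upper and 351 and 489 in deep layers. The 3 fractions did not overlap in any library, with bulk tissue between the sorted fractions. The log2 difference of astrocytes from non-astrocytes was -6.10 ± 0.26 (SE; adjusted p = 2.28e-11, limma), or 68.5-fold lower, and that of non-astrocytes from bulk tissue was 3.93 ± 0.29 (adjusted p = 1.62e-08, limma), the highest of the 18.

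Cldn5 (chr16:18776847-18778262) encodes claudin-5, the main sealing protein of endothelial tight junctions. It had 37.2, 55.6 and 68.3 counts in upper and 18.9, 12.8 and 43.4 in deep layer astrocytes. Non-astrocytes had 2219 and 3631 in upper and 2541 and 3938 in deep layers, and bulk tissue had 499 and 339.6 in upper and 589.8 and 619.9 in deep layers. No library of one fraction reached the range of another. Astrocytes were 85.8-fold below non-astrocytes (log2 -6.42 ± 0.29, adjusted p = 3.89e-11, limma) and 14.3-fold below bulk tissue (log2 -3.84 ± 0.29, adjusted p = 1.51e-08, limma).

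Eng (chr2:32646595-32682669), or endoglin, is a co-receptor for TGF-beta family ligands on endothelium. It had 57.3, 33.8 and 92.6 counts in upper and 36.6, 35.5 and 74.0 in deep layer astrocytes, against 4353 and 6170.5 in upper and 3643 and 7369.5 in deep layer non-astrocytes. Bulk tissue had 571 and 354 in upper and 611 and 715 in deep layers, again between the sorted fractions and overlapping with neither. Astrocytes were 99.9-fold below non-astrocytes (log2 -6.64 ± 0.30, adjusted p = 4.6e-11, limma). Ly6c1 (chr15:75044018-75048830), a lipid-anchored surface protein of brain endothelium, had 50.6, 58.9 and 46.3 counts in upper and 17.7, 53.9 and 21.1 in deep layer astrocytes. Non-astrocytes had 1893 and 2428 in upper and 2186 and 2609.9 in deep layers, and bulk tissue had 445 and 439 in upper and 558 and 561 in deep layers. All astrocyte libraries lay below all others, by 58.6-fold against non-astrocytes (log2 -5.87 ± 0.24, adjusted p = 1.2e-11, limma). Reads of Ly6c1 are uncertain, since 32.8% of its 50-base windows also occur in Ly6a, Ly6c2 or Ly6i.

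The receptors that vessels use to grow and mature followed the same order. Kdr and Flt1, the main receptors for VEGF, were 79.2-fold and 66.3-fold lower in astrocytes than in non-astrocytes, and Tek, the angiopoietin receptor, was 50.5-fold lower (log2 -6.31 ± 0.24, -6.05 ± 0.24 and -5.66 ± 0.20; adjusted p = 4.66e-12, 8.76e-12 and 2.26e-12, limma). Of the junction proteins, Cdh5 (VE-cadherin) had a log2 difference of -5.96, Esam of -5.65 and Ocln (occludin) of -5.50. The transporters Slco1a4 and Abcb1a (P-glycoprotein) had log2 differences of -5.92 and -5.89. For Abcb1a, 22.5% of 50-base windows also occur elsewhere, mainly in Abcb1b and Abcb4, and for the transcription factor Foxq1 (log2 -6.71) 66.1% of exonic bases are overlapped by A530084C06Rik on the opposite strand, so both counts are uncertain.

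Tie1 and Pecam1 were depleted less. Tie1, an orphan receptor that modulates Tek, had 128, 129.7 and 118 counts in upper and 122, 111 and 118 in deep layer astrocytes, against 232 and 195 in upper and 263 and 264 in deep layer bulk tissue. Pecam1, an adhesion molecule of endothelial junctions, had 301, 301 and 337 in upper and 364, 289 and 331 in deep layer astrocytes, against 495 and 551 in upper and 643 and 592 in deep layer bulk tissue. For both genes the astrocyte libraries lay close together and below every bulk library. Astrocytes held 7.57% (Tie1) and 8.24% (Pecam1) of the mean in non-astrocytes, against a median of 1.72% over the 18 endothelial genes.

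Mfsd2a (chr4:122946850-122961188), the lipid transporter that carries docosahexaenoic acid into the brain and restrains transcytosis in barrier endothelium, had its highest values in astrocytes. Upper layer astrocytes had 12199.7, 14725 and 12614 counts and deep layer astrocytes 9135, 11631 and 8336. Non-astrocytes had 4162 and 7444 in upper and 4705 and 8519.9 in deep layers, and bulk tissue had 1371 and 1300.2 in upper and 1371 and 1537 in deep layers. Every astrocyte library lay above every bulk library, while 1 deep layer astrocyte library lay inside the range of non-astrocytes. Mfsd2a was 8.06-fold higher in astrocytes than in bulk tissue (log2 3.01 ± 0.18, adjusted p = 1e-09, limma) and 1.89-fold higher than in non-astrocytes (log2 0.92 ± 0.18, adjusted p = 0.000386, limma). It was also 4.26-fold higher in non-astrocytes than in bulk tissue (log2 2.09 ± 0.20, adjusted p = 2.89e-07, limma).

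Vwf (chr6:125546774-125686679), von Willebrand factor, a clotting protein stored in endothelial granules, was higher in non-astrocytes than in both other fractions. Its differences were smaller than the class medians. It had 687, 607 and 609 counts in upper and 846, 629.8 and 755 in deep layer astrocytes. Non-astrocytes had 1439.5 and 1622 in upper and 1043 and 1474 in deep layers, and bulk tissue had 919 and 803 in upper and 794 and 769.6 in deep layers. Non-astrocytes lay above all other libraries, while astrocytes and bulk tissue overlapped. The log2 difference was -1.01 ± 0.13 between astrocytes and non-astrocytes (adjusted p = 5.2e-06, limma), 0.75 ± 0.14 between non-astrocytes and bulk tissue (adjusted p = 0.000292, limma) and -0.26 ± 0.13 between astrocytes and bulk tissue (adjusted p = 0.0898, limma).

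Promoter sequences are printed for Flt1 and Slco1a4, which are strongly depleted in astrocytes, and for Mfsd2a, which is not, as the 250 bases before the start annotated by RefSeq (GRCm38.p6, all on the minus strand). RefSeq promoters were found for 23 of the 36 members: 13 endothelial, 7 mural and 3 fibroblast genes. Capitals mark AGGAAG, or its reverse complement CTTCCT, a core bound by ETS family factors.
Flt1, chr5:147726012-147726261: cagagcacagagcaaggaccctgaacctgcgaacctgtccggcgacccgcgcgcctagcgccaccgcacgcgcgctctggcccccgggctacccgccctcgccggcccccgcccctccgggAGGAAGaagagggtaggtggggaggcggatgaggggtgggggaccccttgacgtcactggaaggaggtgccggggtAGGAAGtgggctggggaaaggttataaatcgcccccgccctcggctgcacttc
Slco1a4, chr6:141856221-141856470: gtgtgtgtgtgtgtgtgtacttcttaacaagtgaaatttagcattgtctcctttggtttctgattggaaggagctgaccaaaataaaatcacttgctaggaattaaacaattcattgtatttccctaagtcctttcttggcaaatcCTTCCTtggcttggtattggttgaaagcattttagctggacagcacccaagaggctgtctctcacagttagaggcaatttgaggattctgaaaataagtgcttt
Mfsd2a, chr4:122961189-122961438: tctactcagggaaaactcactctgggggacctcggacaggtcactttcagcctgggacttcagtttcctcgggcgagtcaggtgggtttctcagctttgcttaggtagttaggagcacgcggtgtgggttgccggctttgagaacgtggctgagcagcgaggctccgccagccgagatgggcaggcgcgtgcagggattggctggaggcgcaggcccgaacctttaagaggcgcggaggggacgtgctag
Flt1 held matches at 129 to 124 and at 53 to 48 bases before the start, Slco1a4 held 1 at 104 to 99, and Mfsd2a held none. Over the members, 8 of 13 endothelial, 0 of 7 mural and 0 of 3 fibroblast promoters held AGGAAG on either strand, beside 29.5% of the 32851 mouse promoters of the same length. Among the endothelial promoters without it were those of Kdr and Ocln, genes that were also strongly depleted in astrocytes. TGTTTAC, a core bound by forkhead factors, lay in 1 of the 13 endothelial promoters (Abcb1a) and in 3.17% of all. These matches describe letters and show no binding.

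Mural genes were strongly concentrated in the non-astrocyte fraction, and Pdgfrb and Tagln were the members higher in astrocytes than in bulk tissue. Of 13 genes, 12 were higher in non-astrocytes than in bulk tissue by limma, with a median log2 difference of 4.50, or 22.6-fold, and 12 were lower in astrocytes than in non-astrocytes, with a median of -6.37, or 82.6-fold lower. Of all genes 30.5% were higher and 36.8% lower in these directions. Against bulk tissue, astrocytes had 10 lower and 2 higher, with a median log2 difference of -1.52, beside 36.1% and 28.8% of all genes. With the replicate number as a block within each fraction, 8 were lower, as Des (adjusted p = 0.0509, limma) and Tbx2 (adjusted p = 0.294, limma) were no longer called. Cnn1 was not called in any of the 3 comparisons.

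Rgs5 (chr1:169655501-169695813), a regulator of G protein signalling that marks pericytes, dominated the class. Astrocytes had 2295, 1535 and 4073 counts in upper and 2199, 1594 and 2149.6 in deep layers. Non-astrocytes had 180473 and 215128 in upper and 256466 and 198858 in deep layers, against 6570.0 and 6946 in upper and 8520.0 and 6249 in deep layer bulk tissue. The fractions did not overlap. Rgs5 was 30.0-fold higher in non-astrocytes than in bulk tissue (log2 4.91 ± 0.24, adjusted p = 1.59e-10, limma), and astrocytes were 96.6-fold below non-astrocytes (log2 -6.59 ± 0.21, adjusted p = 1.13e-12, limma). It made up 78.2% to 86.2% of the summed counts of the 13 mural genes there. Per kilobase of exon its level in non-astrocytes was 46795 ± 7130 counts (SD, n = 4), against 6218 ± 1529 for Vtn, the next in the class.

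Vtn (chr11:78499091-78502324), or vitronectin, an adhesive matrix protein secreted by brain pericytes, had 119, 95.9 and 172 counts in upper and 60.2, 22.7 and 67.7 in deep layer astrocytes. Non-astrocytes had 8945 and 15859 in upper and 11294 and 14394 in deep layers, and bulk tissue had 586 and 427 in upper and 651 and 588 in deep layers. All astrocyte libraries lay below all bulk libraries, and those below all non-astrocyte libraries. Astrocytes were 161-fold below non-astrocytes (log2 -7.33 ± 0.28, adjusted p = 8.52e-12, limma) and 7.28-fold below bulk tissue (log2 -2.86 ± 0.28, adjusted p = 3.09e-07, limma).

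Acta2 (chr19:34241090-34255590), the smooth muscle actin, had 47.7, 40.3 and 70.5 counts in upper and 43.7, 32.6 and 49.7 in deep layer astrocytes. Non-astrocytes had 4285 and 5659 in upper and 2943 and 3223 in deep layers, against 119.8 and 141 in upper and 91.6 and 133 in deep layer bulk tissue. The fractions did not overlap, and within non-astrocytes both upper layer libraries lay above both deep layer libraries. Acta2 was 32.2-fold higher in non-astrocytes than in bulk tissue (log2 5.01 ± 0.21, adjusted p = 4.89e-11, limma), the highest of the 36 genes. Myh11, the smooth muscle myosin heavy chain, was 31.1-fold higher there (log2 4.96 ± 0.23, adjusted p = 9.94e-11, limma).

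Pdgfrb (chr18:61045150-61085061), the receptor through which endothelial PDGF-B recruits pericytes, stood apart from its class. Upper layer astrocytes had 2009.9, 3089.9 and 2979.8 counts and deep layer astrocytes 2326, 1786 and 2701. Non-astrocytes had 7279 and 9556 in upper and 5920.4 and 8498 in deep layers, and bulk tissue had 465 and 421 in upper and 562 and 470.2 in deep layers. Astrocytes lay between the other fractions without overlapping either. Pdgfrb was 5.09-fold higher in astrocytes than in bulk tissue (log2 2.35 ± 0.16, adjusted p = 5.44e-09, limma) and 3.16-fold lower than in non-astrocytes (log2 -1.66 ± 0.16, adjusted p = 3.01e-07, limma). Astrocytes held 31.8% of the mean of non-astrocytes, against 1.08% for Rgs5 and 0.71% for Vtn, which are pericyte genes too.

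Tagln (chr9:45929619-45936058), or transgelin, an actin-binding protein of smooth muscle, had 78.3, 61.0 and 94.8 counts in upper and 131, 53.9 and 102 in deep layer astrocytes. Non-astrocytes had 636 and 701 in upper and 438 and 436 in deep layers, and bulk tissue had 54.4 and 53.1 in upper and 37.6 and 49.0 in deep layers. The lowest astrocyte library lay below the highest bulk library, so those fractions overlapped. Tagln was 1.71-fold higher in astrocytes than in bulk tissue (log2 0.78 ± 0.23, adjusted p = 0.0081, limma). Of its exonic bases 67.9% are overlapped by Pcsk7 or Gm48529 on the opposite strand, and the sources used here do not say whether counting used strand, so its count is uncertain.

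Cnn1 (chr9:22099216-22109630), or calponin, another smooth muscle protein, was near the lower limit of detection everywhere. It had 5.73, 4.36 and 7.71 counts in upper and 10.6, 5.67 and 11.6 in deep layer astrocytes. Non-astrocytes had 22.3 and 9.87 in upper and 8.09 and 4.55 in deep layers, and bulk tissue had 11.98 and 4.01 in upper and 27.0 and 4.62 in deep layers. All fractions overlapped, and the adjusted p by limma was 0.519 between the sorted fractions, 0.621 between astrocytes and bulk tissue and 0.908 between non-astrocytes and bulk tissue. At this depth no difference in Cnn1 was detectable.

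The remaining mural genes followed the class. Abcc9, a subunit of the ATP-sensitive potassium channel of pericytes, was 22.6-fold higher in non-astrocytes than in bulk tissue (log2 4.50 ± 0.13, adjusted p = 4.9e-12, limma). Anpep (aminopeptidase N), Des (desmin), Higd1b, Ndufa4l2 and Tbx2 had log2 differences of 4.41 to 4.63 in that comparison. Ndufa4l2, a mitochondrial protein enriched in pericytes, had 0.955, 0 and 2.20 counts in upper and 2.36, 0 and 2.11 in deep layer astrocytes, against 361 and 631 in upper and 421 and 489 in deep layer non-astrocytes. Its level in astrocytes, 0.27% of the mean in non-astrocytes, was the lowest of the 36.

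Sequences are shown for Rgs5 and Vtn, the most abundant mural members, and for the stretches of Acta2 that hold a CArG box, the site bound by serum response factor at smooth muscle genes. Rgs5 and Vtn lie on the plus strand and are given as the 250 bases before the RefSeq start (GRCm38.p6). Acta2 lies on the minus strand and is given as 30 bases around each match, since GENCODE annotates a longer untranslated first exon there. Both Acta2 stretches lie inside the gene as GENCODE annotates it. Capitals mark GGAATG, the reverse complement of CATTCC (a core bound by TEAD factors), in Vtn, and the CArG boxes, each with 1 C or G in the A and T core, in Acta2.
Rgs5, chr1:169655251-169655500: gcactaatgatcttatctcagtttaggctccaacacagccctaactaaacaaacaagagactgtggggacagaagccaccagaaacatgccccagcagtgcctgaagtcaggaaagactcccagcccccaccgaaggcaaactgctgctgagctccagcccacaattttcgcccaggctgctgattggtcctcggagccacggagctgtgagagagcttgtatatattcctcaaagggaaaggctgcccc
Vtn, chr11:78498870-78499119: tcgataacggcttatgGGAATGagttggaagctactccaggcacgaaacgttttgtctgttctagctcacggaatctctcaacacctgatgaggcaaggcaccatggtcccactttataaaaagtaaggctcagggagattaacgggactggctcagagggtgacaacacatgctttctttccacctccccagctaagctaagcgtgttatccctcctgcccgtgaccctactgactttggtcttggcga
Acta2, distal, chr19:34255438-34255467: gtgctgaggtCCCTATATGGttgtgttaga
Acta2, proximal, chr19:34255388-34255417: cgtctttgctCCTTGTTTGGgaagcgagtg
The Acta2 matches lay 84 to 75 and 34 to 25 bases before the RefSeq start. A CArG box with 1 C or G in its core was found in 1 of 7 mural, 4 of 13 endothelial and 0 of 3 fibroblast promoters, beside 8.59% of all mouse promoters. The strict form, with only A and T in the core, lay in no member's promoter and in 1.47% of all. CATTCC lay in 3 of 7 mural (Abcc9, Acta2 and Vtn), 1 of 13 endothelial and 0 of 3 fibroblast promoters, beside 12.6% of all, and TATAAA in 1, 2 and 0, beside 12.4% of all. Rgs5 held neither AGGAAG nor CATTCC.

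The 5 fibroblast genes moved together in every fraction comparison. All 5 were lower in astrocytes than in non-astrocytes (median log2 -6.36, or 82.4-fold lower), all 5 were lower in astrocytes than in bulk tissue (median log2 -2.90, or 7.45-fold lower), and all 5 were higher in non-astrocytes than in bulk tissue (median log2 3.65, or 12.6-fold). Over all genes 36.8%, 36.1% and 30.5% were called in these 3 directions. The libraries of the fractions did not overlap for any of the 5, beside 30.1%, 29.9% and 29% of all genes in the same directions.

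Lum (chr10:97565128-97572703), or lumican, a small proteoglycan that spaces collagen fibrils, had 10.5, 6.54 and 13.2 counts in upper and 3.54, 0 and 0 in deep layer astrocytes. Non-astrocytes had 576 and 911 in upper and 626 and 597 in deep layers, and bulk tissue had 46.1 and 24.0 in upper and 98.7 and 58.2 in deep layers. Astrocytes were lowest throughout, 158-fold below non-astrocytes (log2 -7.31 ± 0.41, adjusted p = 4.56e-10, limma).

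Dcn (chr10:97479609-97518143), or decorin, a related collagen-binding proteoglycan, had 17.2, 14.2 and 17.6 counts in upper and 16.5, 2.84 and 2.11 in deep layer astrocytes. Non-astrocytes had 1139 and 1932 in upper and 1054 and 913 in deep layers, against 98.6 and 71.1 in upper and 56.4 and 77.6 in deep layer bulk tissue. Non-astrocytes lay 16.0-fold above bulk tissue (SE of the log2 difference 0.42, adjusted p = 8.71e-07, limma), the highest of the 5.

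Slc6a20a (chr9:123634770-123678885), a transporter of proline and related amino acids, had 28.6, 9.81 and 18.7 counts in upper and 26.0, 1.42 and 17.98 in deep layer astrocytes. Non-astrocytes had 1028 and 914 in upper and 984 and 796 in deep layers, and bulk tissue had 64.5 and 54.1 in upper and 81.1 and 98.9 in deep layers. It was 12.6-fold higher in non-astrocytes than in bulk tissue (log2 3.65 ± 0.57, adjusted p = 6.96e-05, limma). Its reads are uncertain, since 26.7% of its 50-base windows also occur elsewhere, among them in Slc6a20b. Aldh1a2, which makes retinoic acid, and Foxc1, a transcription factor of meningeal development, were 10.3-fold and 9.38-fold higher in non-astrocytes than in bulk tissue (log2 3.36 ± 0.58 and 3.23 ± 0.30; adjusted p = 0.000137 and 1.9e-07, limma).

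**Figure D2:**
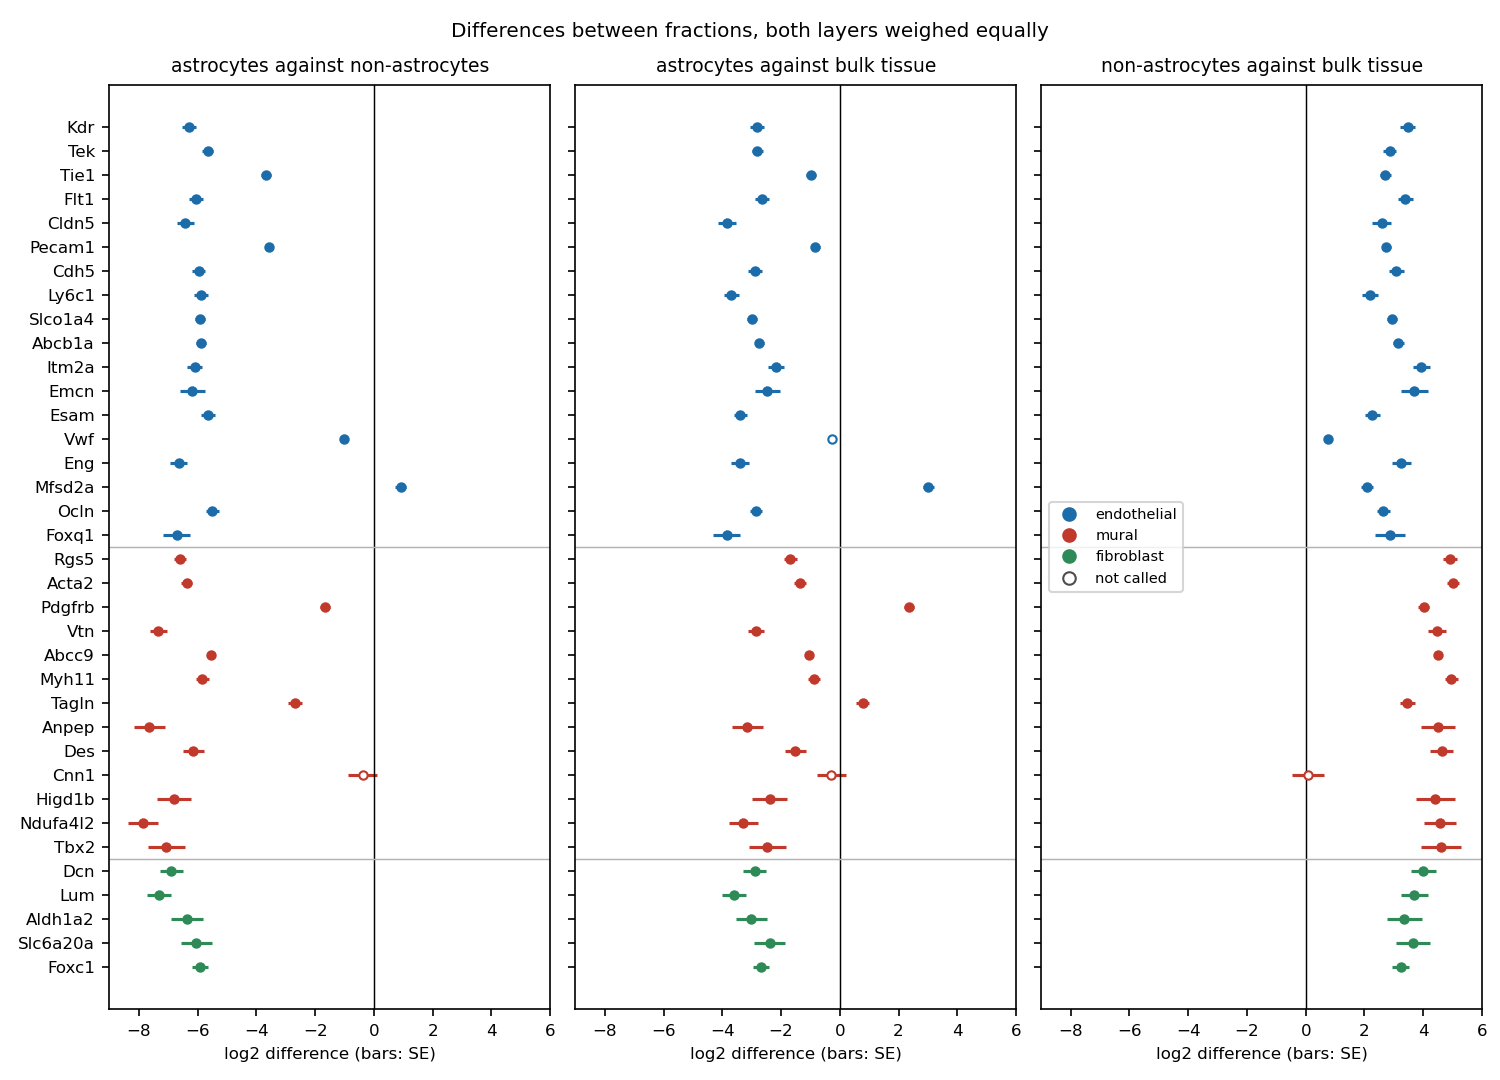
Log2 differences between fractions for all 36 members, with both layers weighed equally; bars are standard errors, colours are classes and open circles were not called. In astrocytes against non-astrocytes all members but Mfsd2a lie below 0, and in non-astrocytes against bulk tissue all lie above 0, most mural genes farthest, with Tagln (3.46) and Cnn1 (0.08) below several endothelial and fibroblast genes.

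The libraries of astrocytes and non-astrocytes did not overlap for 17 endothelial, 12 mural and 5 fibroblast genes, all lower in astrocytes, and for none that was higher, beside 30.1% and 21.7% of all genes. Between astrocytes and bulk tissue, Mfsd2a and Pdgfrb were higher without overlap, beside 23.2% of all genes, and 16 endothelial, 9 mural and 5 fibroblast genes were lower without overlap, beside 29.9%.

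The levels of most members in sorted astrocytes were low and varied by library. As a share of the mean in non-astrocytes, the median over genes was 1.72% for the 18 endothelial, 1.18% for the 13 mural and 1.35% for the 5 fibroblast genes, beside 1.04% for the 10 microglia markers. The corresponding medians in bulk tissue were 13.6%, 4.46%, 8.37% and 4.54%. Across the 6 astrocyte libraries the endothelial median ran from 1.10% in deep layer replicate 2 to 2.23% in upper layer replicate 3. The mural median ran from 0.81% to 1.91% in the same libraries. The fibroblast median ran from 0.15% in deep layer replicate 2 and 0.17% in deep layer replicate 3 to 2.12% in upper layer replicate 1. The microglia median ran from 0.49% in deep layer replicate 2 to 1.55% in upper layer replicate 3. Deep layer replicate 2 listed 1 endothelial, 2 mural and 2 fibroblast genes at 0, and deep layer replicate 3 listed 2 fibroblast genes at 0. Upper layer replicate 2 listed 1 mural and 1 fibroblast gene at 0. The part of microglia or vascular cells in a member's level in astrocytes was not tested. Mfsd2a, at 184%, Cnn1, at 68.1%, Vwf, at 49.4%, Pdgfrb, at 31.8%, and Tagln, at 15.7%, lay far above these medians.

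**Figure D3:**
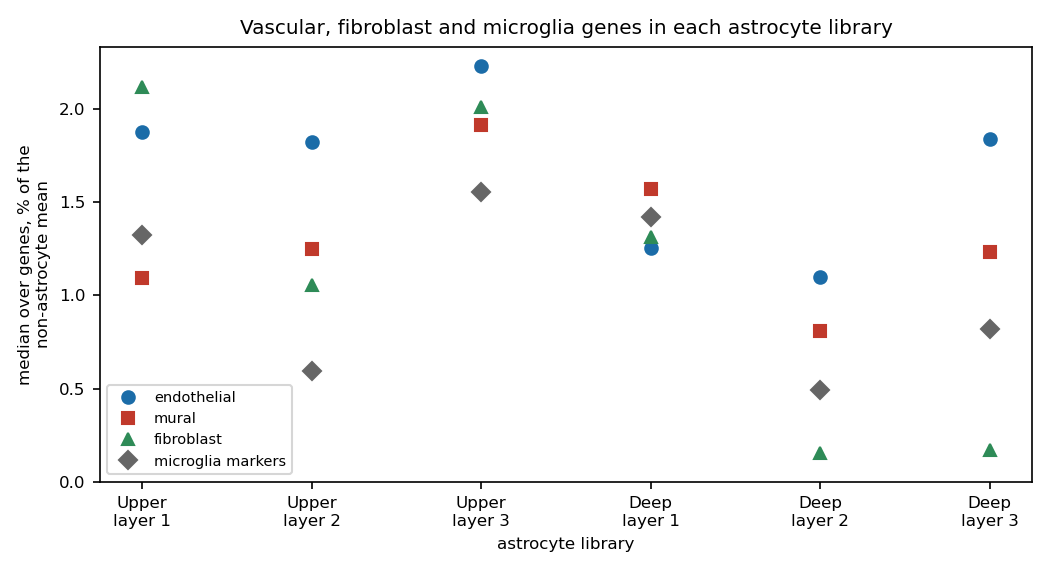
Median over the genes of each class, in percent of the mean in non-astrocytes, in each of the 6 astrocyte libraries, upper layers on the left. Upper layer replicate 3 is highest for endothelial (2.23%), mural (1.91%) and microglia (1.55%) genes, and deep layer replicate 2 is lowest for all 4 lists.

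Between layers, no member was called in any fraction by limma at an adjusted p under 0.05. Over all genes, 0.0797% were called between upper and deep layer astrocytes (0.0399% in each direction), 0.00443% between upper and deep layer non-astrocytes and 0.456% between upper and deep layer bulk tissue. At an unadjusted p under 0.05 the members numbered 9 in astrocytes, 2 in non-astrocytes and 1 in bulk tissue. For this unadjusted threshold, here and below, the share of all genes was not computed, so the counts of members show no excess. On recovered reads edgeR called none, and DESeq2 called 1 in astrocytes (Vtn), 1 in non-astrocytes (Myh11) and 0 in bulk tissue. Over all genes DESeq2 called 142, 139 and 428 in these fractions. The direct tests of whether a layer difference depended on the fraction called no member either (0.0576% of all genes for non-astrocytes minus bulk tissue, 0.0399% higher and 0.0177% lower, and 0.00443% for astrocytes minus non-astrocytes), with 1 and 6 members at an unadjusted p under 0.05. edgeR and DESeq2 called 0 members in both.

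In astrocytes, 25 of 36 members had a positive difference, 14 of 18 endothelial, 6 of 13 mural and 5 of 5 fibroblast. The fibroblast median log2 difference was 1.54, the endothelial 0.38 and the mural -0.01, beside 0.01 over all genes. Lum, Vtn, Des and Mfsd2a were higher in all 3 upper than in all 3 deep layer libraries, and no member was lower in all 3, beside 8.7% and 7.31% of all genes. Lum rested on 29 reads in upper and 3 reads in deep layer astrocytes, a ratio of 8.41 with an exact 95% interval of 2.61 to 43.1 that covers counting error only. Its fitted log2 difference of 2.70 ± 0.52 (adjusted p = 0.0771, limma) depended on the pseudocount, at 3.35 with 0.5 and 1.31 with 5. Aldh1a2 had 15 and 1 reads, a ratio of 13.0 with an interval of 2.01 to 549.

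Deviations of same-numbered upper and deep layer astrocyte libraries correlated at 0.203, 0.149 and 0.171, while same-numbered libraries of different fractions reached 0.187. Libraries with different numbers were not compared, so these values do not settle whether the libraries are paired. The fit with the replicate number as a block within each fraction is therefore given only as an alternative. It called Lum (log2 2.70, adjusted p = 0.0295) and Vtn (log2 1.45, adjusted p = 0.0179), both higher in upper layer astrocytes, and 188 genes in all against 18 without the block. Vtn had a log2 difference of 1.45 ± 0.35 without the block (adjusted p = 0.184, limma). Leaving out single astrocyte libraries changed the calls as well. Without deep layer replicate 1, 2 or 3, the genes called in all numbered 35, 35 and 56. Without deep layer replicate 1, Lum and Dcn were called (log2 3.42 and 2.32, adjusted p = 0.00517 and 0.00709), without deep layer replicate 2, Ly6c1 (log2 1.37, adjusted p = 0.00852), and without deep layer replicate 3, Cldn5 and Tek (log2 1.68 and 1.23, adjusted p = 0.0423 and 0.0494), all with limma and all higher in upper layer astrocytes. Over all alternatives the adjusted p ran from 0.00517 to 0.516 for Lum, 0.0131 to 0.516 for Vtn, 0.00709 to 0.626 for Dcn, 0.00852 to 0.734 for Ly6c1, 0.0423 to 0.668 for Cldn5 and 0.0494 to 0.602 for Tek (limma, edgeR and DESeq2). Microglia markers had a positive layer difference in 8 of 10 genes in astrocytes (median log2 0.25, none called), and their part in these differences was not tested.

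In non-astrocytes the 2 members with an unadjusted p under 0.05 were the contractile genes Myh11 and Acta2, described further because of their values. Myh11 (chr16:14194535-14291372) had 3926 and 3048 counts in upper and 1593 and 1561 in deep layer non-astrocytes, a log2 difference of 1.13 ± 0.32 (adjusted p = 0.535, limma). DESeq2 gave 1.15 for it (adjusted p = 0.00286), and over all alternatives the adjusted p ran from 0.00286 to 1. Acta2 had a log2 difference of 0.68 ± 0.30, Tagln of 0.61 ± 0.36 and Cnn1 of 1.16 ± 0.76, each with both upper layer libraries above both deep layer libraries, and each with an adjusted p of 1 by limma. These 4 are the members higher in this way among the 13 mural genes, beside 11.8% of all genes. Of these, Cnn1 rested on 29 and 11 reads in upper and 10 and 5 reads in deep layer non-astrocytes. Of the 13 mural genes 10 had a positive difference, with a median log2 of 0.14. The other 9 overlapped between layers and ran from -0.20 for Rgs5 to 0.36 for Anpep, with Pdgfrb at 0.23, Abcc9 at 0.08 and Vtn at -0.10. Of the 18 additional mural genes described below, 14 had a positive and 4 a negative difference here (median log2 0.18), none called. The fibroblast genes Dcn and Aldh1a2 were also higher in both upper layer libraries, and Tek, Ocln, Slco1a4 and Abcb1a were lower in both, beside 13.7% of all genes. In bulk tissue the same contractile genes had log2 differences of -0.04 for Myh11, 0.23 for Acta2, 0.32 for Tagln and -0.64 for Cnn1. The layer difference of Myh11 in non-astrocytes exceeded that in bulk tissue by 1.17 ± 0.45 on the log2 scale (unadjusted p = 0.0209, adjusted p = 1.00, limma). Of other cell types in upper against deep layer non-astrocytes, neuron markers had positive differences in 10 of 10 genes (median log2 0.74) and oligodendrocyte markers in 0 of 10 (median -1.21), none called, and their part was not tested.

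In bulk tissue, 28 of 36 members had a negative difference, including 16 of 18 endothelial genes, with an endothelial median log2 difference of -0.24 beside 0.00 over all genes. Of the endothelial genes, 11 had both upper layer libraries below both deep layer libraries and 1, Vwf, had both above, beside 21.3% and 22.4% of all genes. Slco1a4, an organic anion transporter of the barrier, had 519 and 442 counts in upper and 780.1 and 676 in deep layer bulk tissue. Its log2 difference was -0.60 ± 0.25 (adjusted p = 0.565, limma), and it was the 1 member called when the 4 bulk libraries were fitted alone (adjusted p = 0.0454, limma), where 1093 genes were called in all; over all alternatives its adjusted p ran from 0.0454 to 1. Aldh1a2 had 29.5 and 25.0 counts in upper and 11.7 and 11.1 in deep layer bulk tissue, a log2 difference of 1.18 ± 0.83 (adjusted p = 0.983, limma), while Lum had -1.16 ± 0.64 (adjusted p = 0.831, limma), so these fibroblast genes pointed in opposite directions. Of the oligodendrocyte markers 4 of 10 were lower in upper layer bulk tissue, with a median log2 difference of -1.80, and their part was not tested.

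**Figure D4:**
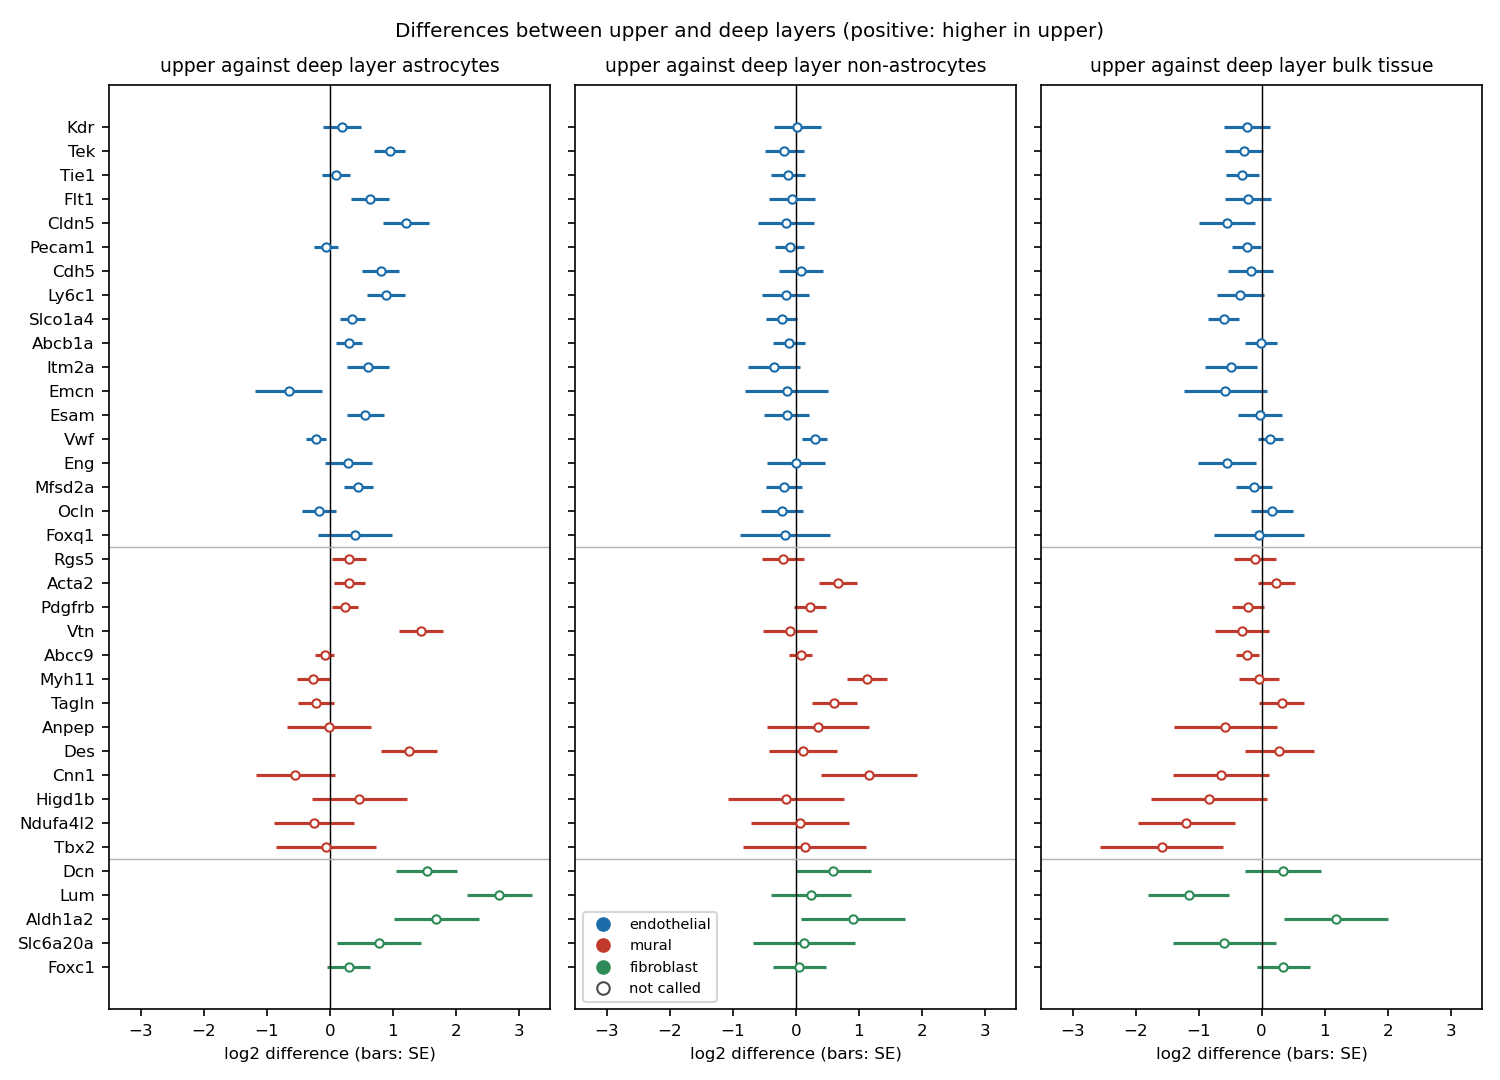
Log2 differences of upper from deep layers within each fraction for all 36 members, with standard errors as bars; all circles are open because none was called. In astrocytes Lum reaches the farthest right (2.70, on 29 against 3 reads), while the lowest fibroblast gene lies at 0.30. In bulk tissue most genes lie slightly left of 0. In non-astrocytes the contractile genes Myh11 (1.13) and Cnn1 (1.16, on 5 to 29 reads per library) reach the farthest right.

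Other genes of the same cells were read from 6 further lists, whose counts stand beside the shares of all genes called: 29.6% higher and 36.8% lower in astrocytes than in non-astrocytes, 28.8% and 36.1% in astrocytes than in bulk tissue, and 30.5% and 31.1% in non-astrocytes than in bulk tissue. All 16 endothelial transcription factors were higher in non-astrocytes than in bulk tissue (median log2 3.00) and lower in astrocytes than in non-astrocytes (median -5.37). Ets1 and Erg, ETS factors of endothelium, had log2 differences of -6.03 and -5.51 between astrocytes and non-astrocytes, Foxf2 of -5.79 and Sox18 of -5.76. Lef1, Epas1 and Sox7 were the 3 of 16 that were higher in astrocytes than in bulk tissue (log2 1.39, 0.99 and 0.93; adjusted p = 1.04e-07, 2.74e-05 and 0.000283, limma), and Lef1, a mediator of Wnt signalling, was also higher in upper than in deep layer astrocytes (log2 1.31 ± 0.16, adjusted p = 0.00279, limma; from 8.82e-11 to 0.223 over the alternatives, the highest with the astrocyte libraries fitted alone).

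Of 16 barrier and transport genes, 15 were higher and 1 was lower in non-astrocytes than in bulk tissue (median log2 2.67). Cav1 (caveolin-1), Slc16a1 (a monocarboxylate transporter), Cgnl1 and Slco1c1 had differences of 3.33, 2.85, 3.41 and 2.28. Plvap, the diaphragm protein of fenestrated endothelium, averaged 14.2 ± 4.81 counts in non-astrocytes and 123 ± 35.0 in bulk tissue (SD, n = 4 each), a log2 difference of -3.07 ± 0.61 (adjusted p = 0.000469, limma). In astrocytes against bulk tissue, 7 were higher and 7 lower, where 28.8% and 36.1% of all genes were. Slco1c1, a carrier of thyroid hormone and organic anions, averaged 26017 ± 6355 counts in astrocytes (n = 6) and 2261 ± 237 in bulk tissue (SD, n = 4), 11.3-fold higher. Slc3a2, the heavy chain of large amino acid transporters, was 3.89-fold and Slc2a1, the barrier glucose transporter, 2.87-fold higher in astrocytes than in bulk tissue (adjusted p = 1.79e-08 and 6.4e-08, limma).

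Of 15 tested genes of arterial, capillary tip and venous endothelium (16 listed), 11 were higher and 2 lower in non-astrocytes than in bulk tissue. The lower count was 1 without upper layer non-astrocyte replicate 1, deep layer non-astrocyte replicate 1, upper layer bulk replicate 2 or deep layer bulk replicate 1. Angpt2, Nr2f2, Icam1 and Dll4 had log2 differences of 2.36, 2.84, 5.41 and 3.45. Vcam1, a leukocyte adhesion molecule, averaged 19956 ± 3525 counts in astrocytes (n = 6), against 769.6 ± 191 in non-astrocytes and 1128 ± 161 in bulk tissue (SD, n = 4 each), and was 26.2-fold higher in astrocytes than in non-astrocytes (adjusted p = 4.33e-12, limma).

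Of 18 additional mural genes, 17 were higher and 1 lower in non-astrocytes than in bulk tissue (median log2 3.52), and all 18 were lower in astrocytes than in non-astrocytes (median -3.12). Cald1, Mcam, Mylk and Casq2 had log2 differences of -6.71, -6.42, -2.83 and -6.33 between astrocytes and non-astrocytes. Notch3 and its target Heyl, which act in mural cells, and Art3 were the 3 that were higher in astrocytes than in bulk tissue (log2 2.41, 2.36 and 1.62; adjusted p = 1.8e-09, 2.03e-08 and 6.28e-07, limma), as Pdgfrb was. The 1 gene lower in non-astrocytes than in bulk tissue lost its call without any 1 of the 4 non-astrocyte libraries other than upper layer replicate 2, and without any 1 of the 4 bulk libraries other than upper layer replicate 1, and 5 genes were higher in astrocytes than in bulk tissue without deep layer astrocyte replicate 2. Art3 was also higher in upper than in deep layer astrocytes (log2 1.43 ± 0.22, adjusted p = 0.0142, limma; not called when any 1 of the 3 upper layer astrocyte libraries was left out, at 0.0539 to 0.0613, or when the astrocyte libraries were fitted alone, at 0.286), and Gucy1a1, a subunit of the nitric oxide receptor, was higher in upper than in deep layer bulk tissue (log2 1.30 ± 0.21, adjusted p = 0.0108, limma). Gucy1a1 was not called when any 1 of the 4 bulk libraries was left out, at adjusted p-values of 0.0846 to 0.218.

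Of 19 tested additional fibroblast genes (20 listed), 16 were higher and 1 lower in non-astrocytes than in bulk tissue (median log2 3.28). The collagens Col1a2 and Col1a1, the growth factor Igf2 and the transcription factor Tbx18 had log2 differences of 3.70, 3.57, 3.28 and 2.80. Igfbp2, which binds insulin-like growth factors, was the 1 gene higher in astrocytes than in non-astrocytes (log2 3.30, adjusted p = 3.05e-09, limma), while Col3a1 and Lama1 were lower there (log2 -7.64 and -7.09).

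Of the 14 vascular growth signals, 6 were higher and 7 lower in astrocytes than in non-astrocytes, where 29.6% and 36.8% of all genes were. Vegfa, the main growth factor for endothelium, averaged 16642 ± 1487 counts in astrocytes (n = 6), against 1454 ± 277 in non-astrocytes and 1833 ± 102 in bulk tissue (SD, n = 4 each). Vegfa, Ndp (norrin) and Wnt7a, ligands of endothelial receptors, were 11.6-fold, 41.5-fold and 28.3-fold higher in astrocytes than in non-astrocytes (adjusted p = 5.25e-13, 1.27e-11 and 3.3e-11, limma). Cxcl12 was 68.8-fold lower (adjusted p = 4.52e-14, limma), and Pdgfb, the ligand of Pdgfrb, averaged 17.9 ± 7.77 counts in astrocytes (n = 6), against 1766 ± 32.0 in non-astrocytes and 324 ± 30.1 in bulk tissue (SD, n = 4 each).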

How the data were processed

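RNA of 14 libraries was reverse transcribed and amplified by single primer isothermal amplification and sequenced as single-end reads, per the labels' protocols. TopHat2 2.0.11, HTSeq 0.6.1p1, CASAVA and DESeq2 are named with GRCm38 in the submitters' processing notes. In the deposited signal, each library's counts stand divided by a size factor of its own (0.705 to 1.30), and 100% of values gave whole reads within 1e-06. Whether counting used strand is not given in the sources used here.

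On log2(value + 1), limma 3.58.1 (trend, robust) fitted 1 model of the 6 group means to the 22575 genes with a value of at least 10 in at least 2 libraries, with Benjamini-Hochberg adjustment over all of them and calls at 0.05. Fold changes are on that scale, and for low genes they can lie above or below the ratio of mean counts. Fraction comparisons weigh both layers equally. edgeR 4.0.16, DESeq2 1.42.0, other pseudocounts, filters and scalings, replicate blocks and leaving out each library were alternatives. On simulated data, limma recovered 174 to 194 of 200 genes changed 4-fold in each of the 6 comparisons simulated, with 3 to 12 false calls. The simulation gave every gene the same dispersion, so it does not show the recovery of genes with a larger spread, such as members with few reads. Deviations of same-numbered upper and deep layer libraries correlated at 0.203, 0.149 and 0.171 in the 3 astrocyte pairs. Between fractions the correlations of same-numbered libraries ran from -0.014 to 0.187, which overlaps those values. Libraries with different numbers were not compared. No pairing was assumed in the main fit, and the block within fraction is given as an alternative.

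Values in every library are given for the 5 endothelial, 4 mural and 3 fibroblast members with the highest mean per kilobase of exon and for members whose call departs from their class; each further list is given by its counts and up to 4 called members of smallest p, others being chosen after their values were seen. The members and lists were chosen with earlier results of these data known. Coordinates, exon lengths and overlaps come from GENCODE M21. Marker lists for astrocytes, microglia, neurons, oligodendrocytes and blood were read beside the members; the 5 blood markers were all lower in astrocytes than in non-astrocytes (median log2 -7.54).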

Additional observations from a re-analysis of the deposited data

Results flagged for a closer look

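For each member, the highest or lowest library was set against the others of its fraction by Dixon's criterion in 108 groups of 4 or 6 libraries, of which chance flags about 1 in 20. Upper layer astrocyte replicate 3 stood above the other 5 astrocyte libraries for Rgs5 (4073 counts, next 2295), Slco1a4 (117 counts, next 74.5) and Anpep (52.9 counts, next 21.1), and it also held the highest microglia median among astrocyte libraries. Emcn stood at 69.5 counts in deep layer astrocyte replicate 2 (next 24.2), and Tbx2 at 23.6 counts in deep layer astrocyte replicate 1 (next 6.34). Among non-astrocytes, Emcn was lowest in upper layer replicate 1 (1093 counts, next 1342) and Lum highest in upper layer replicate 2 (911 counts, next 626). No member's layer difference was called as differing between fractions.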

How the results depend on the processing

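Every class count of the fraction comparisons stayed within 1.5 times its value under all alternatives, which were the 2 other pseudocounts, 2 filters, 2 scalings, edgeR, DESeq2, fits of only the groups compared, 2 replicate blocks and the 14 fits that each left out a library. With the replicate block within fraction, Des (adjusted p = 0.0509) and Tbx2 (adjusted p = 0.294) were no longer called between astrocytes and bulk tissue. Cnn1, never called, turned direction between non-astrocytes and bulk tissue with edgeR (-0.15), DESeq2 (-0.15) and the replicate block within fraction (-0.39), and over the fits without 1 library it ran from -0.50 to 0.66; between astrocytes and bulk tissue it ran from -0.87 to 0.29. The cause was not tested.

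Layer counts moved more. Between upper and deep layer astrocytes 18 genes were called, against 142 with DESeq2, 1 with only the groups compared, 89 with the replicate block, 188 with the block within fraction and 12 to 56 without 1 library. Members called there were 1 with DESeq2, 1 with the replicate block, 2 with the block within fraction and 0 to 2 without 1 library. For non-astrocytes 1 gene was called, against 2 with a pseudocount of 5, 13 without a filter, 7 with edgeR, 139 with DESeq2, 0 with only the groups compared, 3 with the replicate block, 33 within fraction and 0 to 12 without 1 library; DESeq2 called 1 member. For bulk tissue 103 were called, against 231 with a pseudocount of 5, 170 with edgeR, 428 with DESeq2, 1093 with only the groups compared (1 member), 168 with the replicate block, 261 within fraction and 11 to 216 without 1 library. For the layer difference of non-astrocytes minus bulk tissue 13 were called (69.2% higher, 58.3% with TMM scaling), against 7 with a pseudocount of 0.5, 21 with edgeR, 53 with DESeq2 and 0 to 18 without 1 library. For astrocytes minus non-astrocytes 1 was called, against 0 with library total scaling, 59 with DESeq2, 0 with only the groups compared, 3 with the replicate block, 4 within fraction and 0 to 2 without 1 library. In non-astrocytes and bulk tissue replicate numbers form 2 pairs, too few to show a pairing (correlations 0.436 and 0.0937). Among the further lists, the counts lower in non-astrocytes than in bulk tissue were the least stable: with library total scaling they fell to 0 arterial, capillary tip and venous genes, 0 additional mural genes and 3 vascular growth signals, and additional mural genes higher in astrocytes than in bulk tissue numbered 5. Without 1 library, the arterial, capillary tip and venous count was 1 in some fits and the additional mural count 0, as it was with the block within fraction; without deep layer astrocyte replicate 2 the additional mural genes higher in astrocytes than in bulk tissue again numbered 5. Low counts limit Lum, Aldh1a2 and Ndufa4l2 in astrocytes, and Cnn1 in every fraction.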
